A study of Sus scrofa with 8 samples.

Results

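CFTR, the chloride and bicarbonate channel of epithelial cells, depends on partner proteins that fold it, anchor it at the apical membrane, take it up again and destroy copies that fold badly. The transcripts of 8 such partners were followed in the olfactory epithelium of newborn pigs. They were picked out by gene symbol, but with earlier results of these data known. NHERF1 (listed under its older symbol SLC9A3R1) and EZR were taken as scaffolds and GOPC as the PDZ protein of the Golgi. AHSA1 was taken as the folding factor, STUB1 and RNF5 as ubiquitin ligases, and RAB11A and MYO6 as trafficking proteins. Each matched 1 of the 25880 pig genes in the table by symbol, and all 8 were among the 17175 genes that passed the filter on low counts.

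The tissue came from 4 CFTR knock-out piglets (KO, numbered 6, 18, 20 and 21; labelled CFTR-null, with the allele not described) and 4 wild-type piglets (WT, numbered 5, 9, 12 and 23). It was dissected, snap frozen and sequenced as 1 mRNA library per piglet, with no treatment other than the genotype and no litter or batch in the labels. Reads from the Y-linked genes EIF1AY and KDM5D were found in WT piglets 9 and 12 and had a count of 0 in the other 6 libraries, so sex was partly tied to genotype. The study concerned the olfactory deficit of cystic fibrosis, and the comparison here asks whether the partners' transcripts differ when CFTR is disrupted.

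Partner proteins act at successive stations of the CFTR life cycle. Newly made channel is folded at the endoplasmic reticulum by HSP70 and HSP90 with their co-chaperones, and ligases there mark misfolded copies for the proteasome. At the cell surface, NHERF1 binds the PDZ motif at the tail of CFTR and ezrin ties NHERF1 to actin. Internalised channel is either returned to the surface in RAB11 vesicles or routed to lysosomes, a step that the Golgi protein GOPC promotes. In the olfactory mucosa, CFTR is thought to act in non-neuronal cells that set the composition of the mucus over the sensory cilia.

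Library totals were 39915150 to 43253395 counts in KO piglets and 30836904 to 42281883 in WT piglets, and every partner had at least 895 counts in every library. Levels are given as CPM, read counts relative to a library size that TMM has corrected for composition, and, where genes are compared with each other, as TPM, which also divides by gene length. CFTR had 6.31, 5.24, 7.43 and 8.37 CPM in KO piglets 6, 18, 20 and 21, against 56.6, 34.3, 34.0 and 36.6 CPM in WT piglets 5, 9, 12 and 23. Its log2 fold change of -2.56 ± 0.21 (SE) was the only call among all genes tested (edgeR adjusted p = 0.0121), and the edgeR adjusted p was 0.122 without KO piglet 6 and 0.0544 without KO piglet 20. Markers of mature olfactory neurons, 7 of 10 of which were matched, summed to 2862 to 3406 CPM in KO libraries and 1790 to 2927 CPM in WT libraries, and all 7 were counted in every library; OMP, their classical marker, was not matched and was not analysed here. The library of KO piglet 18 stood apart: 6 matched markers of bone and connective tissue summed to 37290 CPM in it, and to 790 to 1405 CPM in the other KO libraries and 1172 to 3972 CPM in the WT libraries.

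No partner transcript passed the threshold. None of the 8 had an edgeR adjusted p under 0.05, against 0.00582% of all genes tested, and the smallest was 0.372. DESeq2 and limma with sample quality weights called 0 of the 8 as well, where DESeq2 called 1.31% of the genes it gave an adjusted p and limma 0.064% of all genes. By the unadjusted p, 1 was higher in KO piglets (MYO6) and 2 were lower (AHSA1 and NHERF1), where 11.2% of all genes passed, 5.4% higher and 5.8% lower. The groups overlapped in all 8 partners, while 5.81% of all genes had groups that did not overlap. Of the log2 fold changes, 2 were positive and 6 negative, with a median of -0.12 beside 0.01 over all genes. In bulk tissue, fewer cells of a type and less RNA per cell cannot be told apart.

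**Figure D1:**
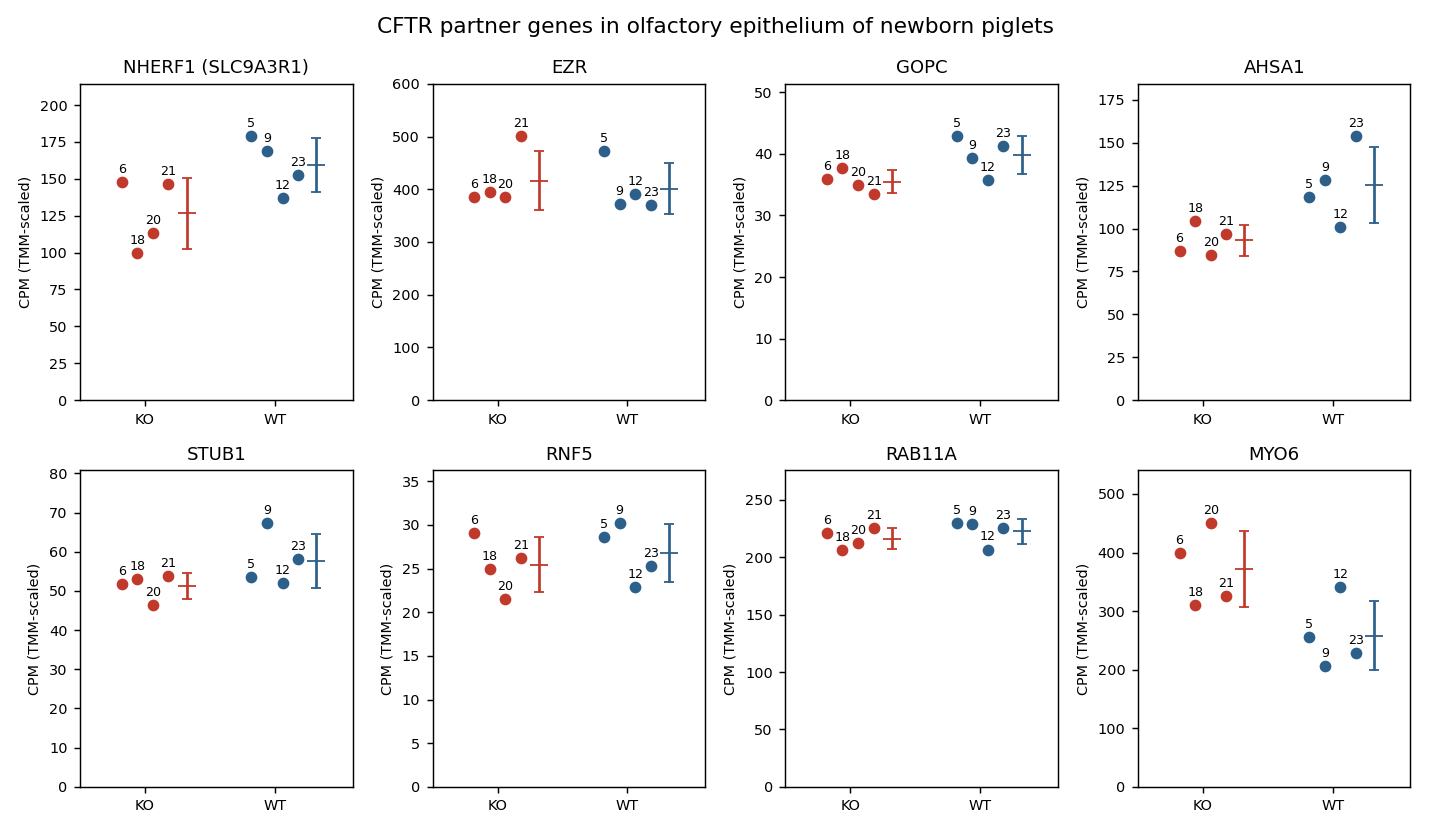
TMM-scaled CPM of the 8 partner genes in each library (points, labelled with the piglet number), with the KO group left of the WT group and the mean ± SD beside each group (n = 4 each). The groups overlap in every panel; MYO6 averaged 372 CPM in KO and 258 CPM in WT piglets, and AHSA1 averaged 93.3 CPM in KO and 125 CPM in WT piglets.

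NHERF1, the PDZ scaffold that holds CFTR at the apical membrane (ENSSSCG00000017232, chromosome 12, 6466121 to 6483548, minus strand; no source used here names the build), had 148, 99.6, 113 and 146 CPM in KO piglets 6, 18, 20 and 21. In WT piglets 5, 9, 12 and 23 it had 179, 169, 137 and 153 CPM. KO piglets 18 and 20 lay below every WT piglet, while KO piglets 6 and 21 lay inside the WT range, above WT piglet 12. The means were 127 ± 24.0 CPM in KO and 159 ± 18.3 CPM in WT piglets (SD, n = 4 each). The log2 fold change was -0.33 ± 0.14 (SE; 95% interval -0.66 to -0.01; edgeR adjusted p = 0.438). The lowest value came from the bone-rich library of KO piglet 18, and without that library the log2 fold change was -0.23 ± 0.13 (edgeR adjusted p = 0.470). It was -0.18 ± 0.13 without KO piglet 18 and WT piglet 5 together, which held the lowest and the highest value. Markers of secretory respiratory cells, 4 of 6 matched, summed to 255 to 307 CPM in KO and 183 to 1054 CPM in WT libraries. AGR2 and BPIFA1 made up most of this sum, with means of 143 and 135 CPM in KO and 259 and 294 CPM in WT piglets. SPDEF averaged 8.83 CPM in KO and 8.74 CPM in WT piglets, and SCGB1A1 0.045 CPM in KO and 0.038 CPM in WT. Markers of motile ciliated cells, 7 of 8 matched, summed to 275 to 358 CPM in KO and 304 to 351 CPM in WT libraries. Over the 8 libraries, as log2 deviations from the group mean, the Pearson r of NHERF1 was 0.57 with the secretory sum. It was 0.73 with the ciliated sum. The part of either marker list in the NHERF1 difference was not tested. NHERF1 shares 969 of its 1957 exon bases with NAT9, a gene of the opposite strand that had 1206 to 1818 counts per library, and the strand setting of the counting is not stated.

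EZR, which encodes ezrin, the linker between NHERF1 and the actin of microvilli (ENSSSCG00000004058, chromosome 1, 8403355 to 8452747, plus strand), had 386, 395, 385 and 500.3 CPM in KO piglets 6, 18, 20 and 21. In WT piglets 5, 9, 12 and 23 it had 472, 371, 390 and 370.1 CPM. Each group had 1 high library, KO piglet 21 and WT piglet 5, and the other 6 lay between 370.1 and 395 CPM. The log2 fold change was 0.06 ± 0.12 (SE; edgeR adjusted p = 0.867), and its 95% interval ran from a 0.859-fold to a 1.26-fold level. Without KO piglet 21 the sign turned, to -0.04 ± 0.11. The point estimates of both scaffolds thus lay on either side of 0.

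GOPC, also called CAL, sits at the Golgi and directs internalised CFTR towards the lysosome (ENSSSCG00000004253, chromosome 1, 44239364 to 44287001, plus strand). It had 35.9, 37.8, 34.9 and 33.4 CPM in KO piglets 6, 18, 20 and 21, and 42.8, 39.3, 35.7 and 41.2 CPM in WT piglets 5, 9, 12 and 23. KO piglets 20 and 21 lay below every WT piglet, and KO piglets 6 and 18 lay above WT piglet 12. The means were 35.5 ± 1.81 CPM in KO and 39.8 ± 3.07 CPM in WT piglets (SD, n = 4 each), with a log2 fold change of -0.16 ± 0.08 (SE; 95% interval -0.35 to 0.02; edgeR adjusted p = 0.467). GOPC varied little within the groups: its within-group coefficient of variation was 6.41%, against a median of 15.2% over all genes tested.

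AHSA1 encodes the co-chaperone that speeds the ATPase cycle of HSP90, and in human cells lowering it has been reported to favour the folding of mutant CFTR (ENSSSCG00000002406, chromosome 7, 100510226 to 100522161, plus strand). It had 87.2, 104, 84.6 and 97.1 CPM in KO piglets 6, 18, 20 and 21. In WT piglets 5, 9, 12 and 23 it had 118, 128, 101 and 154 CPM. KO piglet 18 was the only KO library above WT piglet 12, the lowest WT library, and the other 3 KO libraries lay below all 4 WT libraries. The means were 93.3 ± 9.08 CPM in KO and 125 ± 22.1 CPM in WT piglets (SD, n = 4 each), and the fitted change was -25.6%, a log2 fold change of -0.43 ± 0.13 (SE; 95% interval -0.72 to -0.13; edgeR adjusted p = 0.372). Per length and without TMM scaling the values were 69.7 to 77.2 TPM in KO and 83.1 to 124 TPM in WT libraries, without overlap. However, KO piglet 18, the highest KO library in CPM, was the lowest in TPM, where its collagen counts in the base. The share of all genes without overlap in TPM was not computed, so the separation on that scale adds no support. The difference was -0.52 ± 0.12 without WT piglet 12 (edgeR adjusted p = 0.107) and -0.49 ± 0.14 without KO piglet 18 (edgeR adjusted p = 0.350). The 4 matched of 8 markers of sustentacular cells, which support and surround the neurons, summed to 1274 to 1378 CPM in KO and 1344 to 1856 CPM in WT libraries. Within that sum the keratins KRT8 and KRT18 had lower means in KO piglets (KRT18 at 198 to 263 CPM in KO and 212 to 443 CPM in WT), ERMN had a higher mean (143 to 196 CPM in KO and 66.1 to 208 CPM in WT), and FMO2 averaged 368.7 CPM in KO and 369.5 CPM in WT piglets. Over the 8 libraries, as log2 deviations from the group mean, AHSA1 had a Pearson r of 0.83 with the sustentacular sum. The part of these markers in the AHSA1 difference was not tested.

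STUB1, or CHIP, is the cytosolic ligase that ubiquitinates clients held by HSP70 and HSP90 (ENSSSCG00000008008, chromosome 3, 41092449 to 41095187, minus strand). Its values were 51.7, 53.0, 46.5 and 53.8 CPM in KO piglets 6, 18, 20 and 21, and 53.5, 67.3, 51.9 and 58.1 CPM in WT piglets 5, 9, 12 and 23. The WT group was drawn up by piglet 9, and 6 of the 8 libraries lay between 51.7 and 58.1 CPM. The log2 fold change was -0.17 ± 0.10 (SE; 95% interval -0.39 to 0.05; edgeR adjusted p = 0.508), and -0.09 without WT piglet 9. All 1364 exon bases of STUB1 lie within exons of WDR24 on the opposite strand, which had 1019 to 1383 counts per library. JMJD8, also on the opposite strand, shares all 1364 as well and had 0 to 2 counts, while STUB1 had 1903 to 2496. Reads in the overlap were thus neither all dropped nor given to every gene that covers them. The strand setting of the counting is not stated.

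RNF5 is the ligase in the membrane of the endoplasmic reticulum that recognises CFTR while it is still being made (ENSSSCG00000001436, chromosome 7, 24215490 to 24217983, plus strand). It had 29.1, 24.9, 21.5 and 26.2 CPM in KO piglets 6, 18, 20 and 21, and 28.6, 30.2, 22.8 and 25.3 CPM in WT piglets 5, 9, 12 and 23. The lowest and the next to highest value were both from KO piglets, and the groups were interleaved. The log2 fold change was -0.07 ± 0.12 (SE; edgeR adjusted p = 0.828), with a 95% interval from a 0.782-fold to a 1.16-fold level. It was 0.00 without KO piglet 20. RNF5 shares 212 of its 1255 exon bases with AGER on the opposite strand, which had 7 to 29 counts per library.

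RAB11A, the small GTPase of recycling endosomes, was the steadiest of the partners (ENSSSCG00000032312, chromosome 1, 163858136 to 163894032, plus strand). It had 221, 206, 212 and 225 CPM in KO piglets 6, 18, 20 and 21, and 229.7, 229, 207 and 225 CPM in WT piglets 5, 9, 12 and 23. Its within-group coefficient of variation was 4.45%, and only 2.57% of the genes tested had a lower one. The log2 fold change was -0.04 ± 0.07 (SE; edgeR adjusted p = 0.821), and the 95% interval excluded a level below 0.869-fold or above 1.09-fold.

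MYO6 encodes myosin VI, the motor that walks towards the minus end of actin and draws CFTR into the cell with clathrin and the adaptor DAB2 (ENSSSCG00000004478, chromosome 1, 89994480 to 90084765, minus strand). It had 399.9, 311, 450.2 and 326 CPM in KO piglets 6, 18, 20 and 21. In WT piglets 5, 9, 12 and 23 it had 255, 206, 342 and 229 CPM. KO piglets 6 and 20 lay above every WT piglet, and WT piglet 12 lay above KO piglets 18 and 21, while the other 3 WT piglets lay below all KO piglets. The means were 372 ± 65.1 CPM in KO and 258 ± 59.1 CPM in WT piglets (SD, n = 4 each). This corresponds to a log2 fold change of 0.53 ± 0.18 (SE), or a 1.44-fold level with a 95% interval from 1.09-fold to 1.90-fold, which did not pass (edgeR adjusted p = 0.405). Without WT piglet 12 it was 0.69 ± 0.15 (edgeR adjusted p = 0.107), and over the 8 fits that left out 1 library it was 0.42 to 0.69. The summed markers of mature olfactory neurons given above also ran higher in KO libraries, with an overlap between WT piglet 12, the highest of its group at 2927 CPM, and KO piglet 18 at 2862 CPM. Pearson r was taken over the 8 libraries, as log2 deviations from the group mean. For MYO6 it was 0.27 with the neuron sum and -0.60 with the sustentacular sum. The part of either marker list in the MYO6 difference was not tested.

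**Figure D2:**
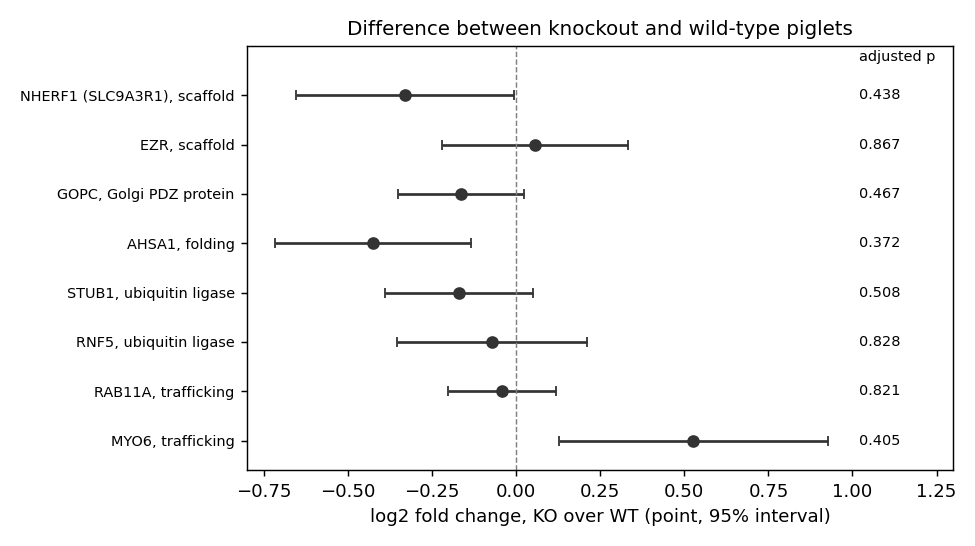
Log2 fold change of KO over WT for each partner with its 95% interval from the edgeR fit, and the Benjamini-Hochberg adjusted p over all genes tested. The intervals of NHERF1 and AHSA1 lie below 0 and that of MYO6 above it, while every adjusted p is 0.372 or more.

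WT piglet 12 bore on several of these comparisons at once. It was the lowest WT library in 6 partners (NHERF1, GOPC, AHSA1, STUB1, RNF5 and RAB11A) and the highest in MYO6. In 6 of the 8 partners it was the WT library closest to the KO mean, and over all genes tested it was the closest in 36.0% of genes, against 17.9 to 23.7% for the other WT libraries. Omitting it left the direction of all 8 log2 fold changes as it was and called none of them.

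**Figure D3:**
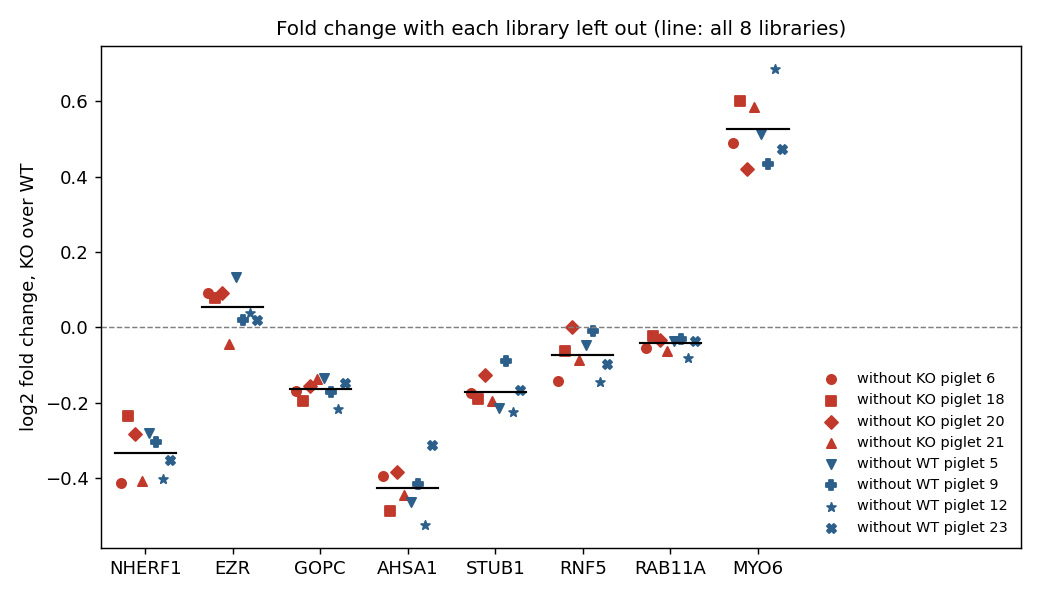
Log2 fold change of KO over WT for each partner when 1 library is left out (symbols; red for an omitted KO library, blue for an omitted WT library), with the value from all 8 libraries as a line. MYO6 lies between 0.42 and 0.69 and AHSA1 between -0.52 and -0.31, whereas EZR and RNF5 reach the other side of 0.

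Per length, the partners spanned a wide range and on average each exceeded CFTR. EZR was the most abundant in each of the 8 libraries, at 426 ± 70.3 TPM in KO and 426 ± 58.1 TPM in WT piglets (SD, n = 4 each), above 98.7% of the genes tested. STUB1 averaged 107 TPM in KO and 125 TPM in WT piglets, RAB11A 87.5 TPM in KO and 93.1 TPM in WT, AHSA1 73.7 TPM in KO and 103 TPM in WT, and RNF5 57.8 TPM in KO and 63.0 TPM in WT. GOPC was the least abundant partner, at 17.1 ± 1.64 TPM in KO and 19.9 ± 1.67 TPM in WT piglets. CFTR was at 1.84 to 3.49 TPM in KO and 14.7 to 25.0 TPM in WT piglets, so GOPC and CFTR overlapped in WT piglets, where GOPC was higher in 3 of 4 libraries. Within the WT group, the ranges of STUB1 and AHSA1, of AHSA1 and RAB11A, and of NHERF1 and MYO6 overlapped as well. Within the KO group, those of EZR and MYO6, of MYO6 and NHERF1, and of STUB1 and RAB11A overlapped. So did those of RAB11A and AHSA1, of AHSA1 and RNF5, and of RAB11A and RNF5. Each KO library nevertheless kept the order of the means in these pairs. TPM takes the whole library as its base, so that the collagen of KO piglet 18 lowers the other genes of that library, and gene lengths are those of the deposited table.

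The order of NHERF1 and MYO6 differed between the groups. MYO6 averaged 285 ± 76.8 TPM in KO and 203 ± 46.8 TPM in WT piglets, and NHERF1 averaged 186 ± 48.8 TPM in KO and 241 ± 30.5 TPM in WT piglets (SD, n = 4 each). Within a library, MYO6 stood at 1.41, 1.63, 2.07 and 1.16 times NHERF1 in KO piglets 6, 18, 20 and 21. In WT piglets 5, 9, 12 and 23 this ratio was 0.743, 0.635, 1.29 and 0.781. MYO6 was thus above NHERF1 in 4 of 4 KO libraries and in 1 of 4 WT libraries, piglet 12, whose ratio also exceeded that of KO piglet 21. The pair was chosen after the values were seen, and the ratio was not tested.

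**Figure D4:**
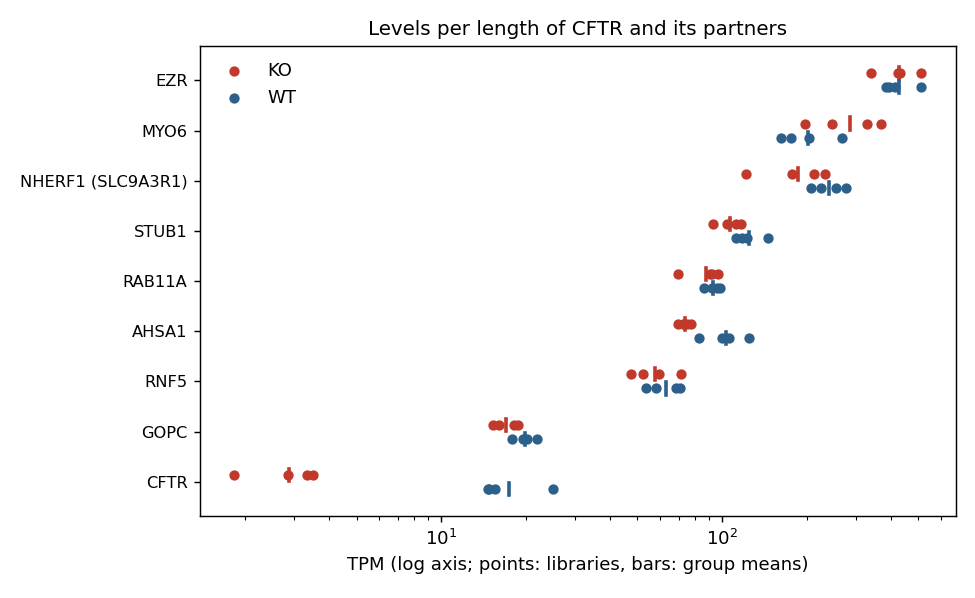
TPM on a log axis for CFTR and its 8 partners, with points for libraries, bars for group means, and KO drawn above WT for each gene. EZR is highest at a mean of 426 TPM in both groups, GOPC is the lowest partner at 17.1 TPM in KO and 19.9 TPM in WT, and CFTR is the gene whose groups are farthest apart.

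Around the partners, 4 lists of further genes of the CFTR pathway were examined, 97 genes in all, of which 91 were matched by symbol and 90 tested. No gene of any list passed the edgeR threshold over all genes tested, and outside the chaperones DESeq2 and limma called none of them either. The counts and medians below describe the lists and carry no test of the list.

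Cytosolic chaperones and co-chaperones, the machinery that AHSA1 and STUB1 serve, were mostly lower in KO piglets. Of 24 tested, 19 had a negative and 5 a positive log2 fold change, with a median of -0.19 beside 0.01 over all genes. The KO and WT values did not overlap in 8, all lower in KO (HSPA8, HSPB1, HSPA4, CHORDC1, STIP1, DNAJA1, HSPH1 and FKBP4), where 3.36% of all genes were lower without overlap. HSPA8, the constitutive cytosolic HSP70, had 803, 1146, 874 and 881 CPM in KO piglets 6, 18, 20 and 21, against 1548, 2021, 1397 and 2332 CPM in WT piglets 5, 9, 12 and 23. Its log2 fold change was -0.98 ± 0.19 (SE, edgeR adjusted p = 0.326), and KO piglet 18 was the KO library nearest to the WT range. HSPB1, a small heat shock protein, averaged 44.7 ± 9.95 CPM in KO and 85.0 ± 22.8 CPM in WT piglets (-0.93 ± 0.21, edgeR adjusted p = 0.326), and HSPA4, an exchange factor of HSP70, averaged 159 ± 6.78 CPM in KO and 195 ± 8.06 CPM in WT piglets (-0.30 ± 0.07, edgeR adjusted p = 0.326). The call on this list depended on the tool, since DESeq2 called 7 of its genes lower (HSPA8, HSPA4, HSPB1, CHORDC1, STIP1, DNAJA1 and HSPH1; adjusted p between 0.000151 and 0.0316) and limma with sample quality weights called HSPA8 lower (adjusted p = 0.0446). Of all genes with an adjusted p, DESeq2 called 0.806% lower and limma 0.0466%. The summed sustentacular markers were 1856, 1670, 1425 and 1344 CPM in WT piglets 23, 9, 5 and 12. HSPA8, HSPB1 and HSPA4 stood in the same order in those libraries. Within the sum, KRT8 and KRT18 had this order as well. ERMN was instead highest in WT piglet 12 (208 CPM) and lowest in WT piglet 9 (66.1 CPM), and FMO2 was lowest in WT piglet 5 (338 CPM). In KO piglets 20, 21, 18 and 6 the sums were 1378, 1352, 1334 and 1274 CPM. There the order differed, since HSPA8, HSPB1 and HSPA4 were all highest in KO piglet 18, though all were lowest in KO piglet 6. The 7 matched of 10 markers of mature olfactory sensory neurons summed to 2862 to 3406 CPM in KO and 1790 to 2927 CPM in WT libraries. The part of either marker list in the chaperone difference was not tested. Both HSP90 genes of the cytosol, on which AHSA1 acts, lay nearer to 0, with log2 fold changes of -0.18 ± 0.11 for HSP90AA1 and -0.09 ± 0.11 for HSP90AB1. Both were chosen once their values were known, as were the non-overlapping genes beyond the first 3.

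Ubiquitin ligases and degradation factors, the group of STUB1 and RNF5, had 20 genes tested, 7 positive and 13 negative, with a median of -0.05. The KO and WT values did not overlap in 1, SEL1L, which was higher in KO, where 2.45% of all genes were higher without overlap. SEL1L, the adaptor of the ligase SYVN1 in the endoplasmic reticulum, had 237, 246, 231 and 233 CPM in KO piglets 6, 18, 20 and 21, against 206, 172, 208 and 199.7 CPM in WT piglets 5, 9, 12 and 23 (log2 fold change 0.27 ± 0.08, edgeR adjusted p = 0.371). RFFL, a ligase of peripheral CFTR, averaged 61.0 ± 7.82 CPM in KO and 49.2 ± 4.67 CPM in WT piglets (0.31 ± 0.11, edgeR adjusted p = 0.406), and its groups overlapped. USP10, a deubiquitinase that spares endocytosed CFTR, averaged 66.7 ± 6.59 CPM in KO and 77.9 ± 4.86 CPM in WT piglets (-0.22 ± 0.09, edgeR adjusted p = 0.417), and its groups overlapped through KO piglet 6.

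Export, endocytosis and recycling factors, the group of RAB11A and MYO6, had 37 genes tested, 22 positive and 15 negative, with a median of 0.06. The KO and WT values did not overlap in 3, all higher in KO, where 2.45% of all genes were higher without overlap. RHOQ, the GTPase TC10 that acts with GOPC, had 122, 127, 130.3 and 125 CPM in KO piglets 6, 18, 20 and 21, against 98.0, 98.1, 113 and 111 CPM in WT piglets 5, 9, 12 and 23 (log2 fold change 0.26 ± 0.07, edgeR adjusted p = 0.355). SNX27, a PDZ protein that returns cargo from endosomes to the surface, averaged 81.7 ± 1.82 CPM in KO and 68.2 ± 5.21 CPM in WT piglets (0.26 ± 0.07, edgeR adjusted p = 0.356). RAB11FIP2, an effector of RAB11A that also binds the motor MYO5B, averaged 59.2 ± 2.66 CPM in KO and 49.1 ± 3.54 CPM in WT piglets (0.27 ± 0.08, edgeR adjusted p = 0.356). DAB2, the adaptor of myosin VI, was at 0.46 ± 0.24 (edgeR adjusted p = 0.487), and it was chosen once its values were known. RAB11B, the paralogue of RAB11A, was chosen in the same way and was at 0.08 ± 0.09 (edgeR adjusted p = 0.718).

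PDZ scaffolds and linkers to the membrane skeleton, the group of NHERF1 and EZR, had 9 genes tested, 4 positive and 5 negative, with a median of -0.05 and overlapping groups in all 9. NF2, the ezrin relative merlin, averaged 105 ± 1.77 CPM in KO and 119 ± 10.5 CPM in WT piglets (log2 fold change -0.18 ± 0.08, edgeR adjusted p = 0.431). SLC9A3R2, which encodes the second scaffold of the family, NHERF2, had -0.31 ± 0.20 (edgeR adjusted p = 0.544), and its highest value, 41.0 CPM, came from WT piglet 5, against 19.4 to 25.6 CPM in KO libraries and 21.2 to 25.1 CPM in the other WT libraries. PRKAR2A, a regulatory subunit of protein kinase A, had 0.13 ± 0.14 (edgeR adjusted p = 0.710). The ezrin paralogues were chosen once their values were known, and the log2 fold change was -0.05 ± 0.18 for RDX and -0.22 ± 0.25 for MSN.

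**Figure D5:**
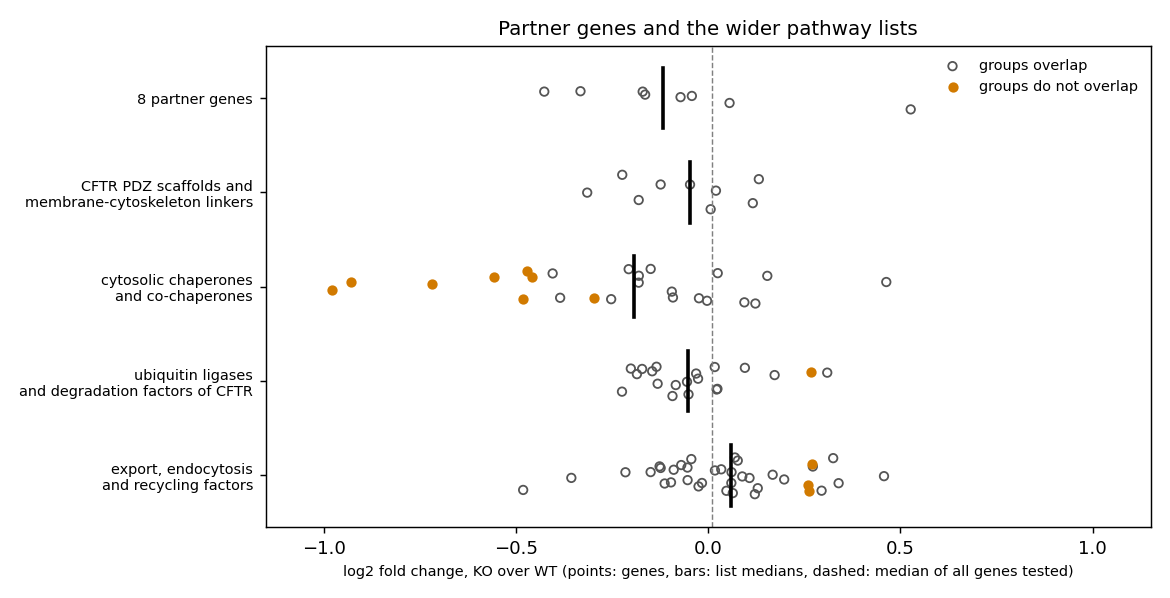
Log2 fold change of KO over WT for the 8 partners and for the genes of the 4 pathway lists (points), with list medians as bars and the median of all genes tested as a dashed line. The 8 non-overlapping chaperones lie between -0.98 and -0.30, the non-overlapping genes of the ligase and trafficking lists lie between 0.26 and 0.27, and the partners have none.

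Within the groups, some partners varied together from piglet to piglet. As a description over 8 libraries, with log2 CPM taken as the deviation from the group mean, the closest pair was NHERF1 and RAB11A (Pearson r = 0.89), and the most opposed were MYO6 and STUB1 (r = -0.85) and MYO6 and AHSA1 (r = -0.83). These values share the library, its depth and its cell makeup. Among 10677 other named genes averaging 5 CPM or more, the pattern most like that of MYO6 was that of NT5DC3 (r = 0.997), followed by RNF150 (r = 0.988). The nearest to RAB11A was FOXJ1, the transcription factor of motile cilia (r = 0.981), then TMEM241 (r = 0.963). AHSA1 was closest to RPA2 (r = 0.987) and HSPA5 (r = 0.979), NHERF1 to PIM2 (r = 0.984) and SLC25A33 (r = 0.960), and EZR to SPART (r = 0.963) and MAP3K8 (r = 0.947). GOPC was closest to PLVAP (r = 0.993) and NSMCE2 (r = 0.983), STUB1 to BRIX1 (r = 0.992) and SHARPIN (r = 0.986), and RNF5 to CDC42 (r = 0.992) and BZW1 (r = 0.977). These are the highest of 10677 values over 8 libraries and serve as a description only.

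By position, 4 of the 8 partners (EZR, GOPC, RAB11A and MYO6) lie on chromosome 1, which holds 8.23% of the genes tested, and AHSA1 and RNF5 lie on chromosome 7. The 4 genes of chromosome 1 had log2 fold changes from -0.16 to 0.53.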

How the data were processed

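Raw read counts per gene were deposited by the authors in 1 table that per the file headers has the layout of featureCounts, with exon length per gene. The submitters' processing notes name these tools without role or order: STAR 2.4.0, Subread 1.5.0-p3 and featureCounts, DESeq2, HTSeq, FastQC. Build, annotation and strand setting are not given in the sources used here. Symbols were paired through a table of gene names (14857 identifiers). Another 5888 identifiers of an extra sequence (94 to 727 reads per library) and 100 of spike-in or control sequences (0 reads) were left out; pig genes held at least 99.998% of reads.

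Counts were fitted with edgeR 4.0.16 (R 4.3.3; quasi-likelihood, TMM, default filter, genotype as factor) and adjusted by Benjamini-Hochberg at 0.05 over 17175 genes. Standard errors and 95% intervals come from the F statistic. TPM was computed from counts and the deposited lengths. Alternatives used DESeq2 1.42.0, limma 3.58.1, other normalizations and filters, a sex covariate and omitted libraries. The pipeline was tested on simulated data. Each library is labelled as its own piglet, so p-values measure spread between animals. Members and lists were chosen with earlier results of these data known. A list gene is not reported here and was left out of the list counts. Named list genes are the 3 with the smallest p; genes of like pattern are the 2 with the highest r. Intervals assume the edgeR model.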

Additional observations from a re-analysis of the deposited data

Results flagged for a closer look

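Among 42 groups of 4 values examined (the 8 partners, CFTR and 12 named list genes, in KO and in WT piglets), 2 held a library whose gap to its nearest neighbour was too large a part of the group's range by Dixon's 95% critical value. Chance gives about 1 in 20. In KO piglets, EZR was 500.3 CPM in piglet 21 and at most 395 CPM in the others. In WT piglets, CFTR was 56.6 CPM in piglet 5 and at most 36.6 CPM in the others.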

How the results depend on the processing

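Each log2 fold change was recomputed under 16 alternatives: 2 normalizations, 2 filters, 2 other tools, a sex covariate, the omission of each library and that of KO piglet 18 with WT piglet 5. No partner was called under any of them; the smallest adjusted p was 0.0930 for AHSA1 and 0.0986 for MYO6. NHERF1, GOPC, AHSA1, STUB1, RAB11A and MYO6 kept their direction throughout. EZR turned to -0.015 with sex as a covariate and ranged from -0.044 (without KO piglet 21) to 0.14 with 1 library omitted, and RNF5 ranged from -0.15 to 0.0011 (without KO piglet 20); the cause was not tested. CFTR was between -2.67 and -2.36 with 1 library omitted, and its call was lost without KO piglet 6 (adjusted p = 0.122) or KO piglet 20 (0.0544). Genes called lower numbered 1 with all libraries, 135 by DESeq2, 8 by limma, 2 without KO piglet 18 and WT piglet 5, and 0 to 10 with 1 library omitted. Genes called higher numbered 0, or 84 by DESeq2, 3 by limma and 0 to 6 with 1 library omitted; the highest counts were without WT piglet 12. Unadjusted, 928 genes were higher and 996 lower. Chaperones called lower numbered 0 by edgeR, 7 by DESeq2 and 1 by limma. No paired analysis was possible because the groups share no piglet number.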
